A study of Mus musculus with 2 samples.

Results

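The Krüppel-like factors are zinc finger proteins that bind GC-rich and CACCC-type DNA and switch genes on or off. Described here are 10 genes of this family other than Klf1, taken by name: Klf2, Klf3, Klf4, Klf5, Klf6, Klf9, Klf10, Klf11, Klf13 and Klf15, of 43346 mouse gene identifiers in the deposited tables. All 10 were found. They were measured in total RNA of livers from B6NCrl mouse embryos at embryonic day 12.5, with males and females mixed. The data are 2 libraries of a single group of healthy embryos: replicate 1 from a pool of 120 livers and replicate 2 from a separate pool of 88. The depth was 37.6 M expected counts (estimated reads) for replicate 1 and 34.7 M for replicate 2. There was no second condition, so the results are the levels of these genes, their order, their transcript models and the difference between the pools. Each pool has 1 library, so a difference between the pools has no replicate check. Between 2 genes, an exact two-sided unpaired permutation test of 2 values against 2 cannot go below p = 0.333.

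At this stage the mouse liver is mainly a blood-forming organ in which red cell precursors grow beside hepatoblasts. Klf1 is the family's red cell member and drives globin and membrane genes in mouse. The other members divide by the partners they bind outside the fingers. Klf3 recruits the corepressor CtBP. Klf9, Klf10, Klf11 and Klf13 carry a short helix that binds Sin3A. Klf2, Klf4, Klf5 and Klf6 are best known as activators, although several of them can also repress, and Klf15 is a metabolic regulator of adult liver and muscle.

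All 10 genes code for 3 C2H2 zinc fingers in a block of 81 residues, found by a search of the translated GENCODE M21 coding sequence. In every gene the block lay at the carboxy-terminal end, with 1 to 39 residues after it, and 42 of its 81 positions held the same residue in all 10. Klf9, Klf10, Klf11 and Klf13 had 19 to 39 residues after the last finger, and Klf2, Klf4, Klf5 and Klf6 had 1 or 2. The search for proline, any residue, aspartate, leucine and then serine or threonine, the short motif that CtBP is known to bind, found 1 match in Klf3 and 0 in each of the other 9. The coding sequences of the last finger, 63 bases each, are shown for 6 genes because they show how far the DNA-binding part is shared between genes of different level and partner. The capitals mark the codons of the cysteines and histidines that hold the zinc ion. Coordinates are on mm10 (GRCm38), and the minus-strand sequences are given 5′ to 3′ on the gene's own strand.
Klf2 at chr8:72320851-72320913, plus strand: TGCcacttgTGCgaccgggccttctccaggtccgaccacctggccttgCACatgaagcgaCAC
Klf4 at chr4:55528131-55528193, minus strand: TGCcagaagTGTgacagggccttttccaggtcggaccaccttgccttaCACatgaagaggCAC
Klf3 at chr5:64829084-64829146, plus strand: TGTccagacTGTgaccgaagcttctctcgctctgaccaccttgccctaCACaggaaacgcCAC
Klf10 at chr15:38295995-38296057, minus strand: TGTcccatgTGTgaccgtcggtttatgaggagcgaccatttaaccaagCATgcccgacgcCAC
Klf11 at chr12:24660290-24660352, plus strand: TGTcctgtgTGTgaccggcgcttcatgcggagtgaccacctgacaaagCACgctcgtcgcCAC
Klf13 at chr7:63891628-63891690, minus strand: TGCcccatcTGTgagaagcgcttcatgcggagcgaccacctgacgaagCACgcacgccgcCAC
Each of these lies in a coding exon. Of the 63 bases, Klf2 shared 43 with Klf3 and Klf4 shared 44, whereas Klf10 shared 34, Klf11 40 and Klf13 35.

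Over the whole finger block, identity between the 45 pairs of genes ran between 60.5% and 91.4%, with a median of 67.9%. Klf2 and Klf4 were the closest pair at 91.4%. Klf3 with Klf5, and Klf10 with Klf11, followed at 86.4% each. The 6 pairs within Klf2, Klf4, Klf5 and Klf6 had 77.8% to 91.4%, and the 6 pairs within Klf9, Klf10, Klf11 and Klf13 had 71.6% to 86.4%. The 16 pairs that cross between these sets had 60.5% to 69.1%. Over whole transcripts the shared stretches were short. The longest run of identical bases shared by the main transcripts of any pair was 24 bases, with a median of 14 over pairs, against a read length of 100 bases implied by the deposited effective lengths. The gene counts of all 10 were whole numbers in both libraries.

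**Figure D1:**
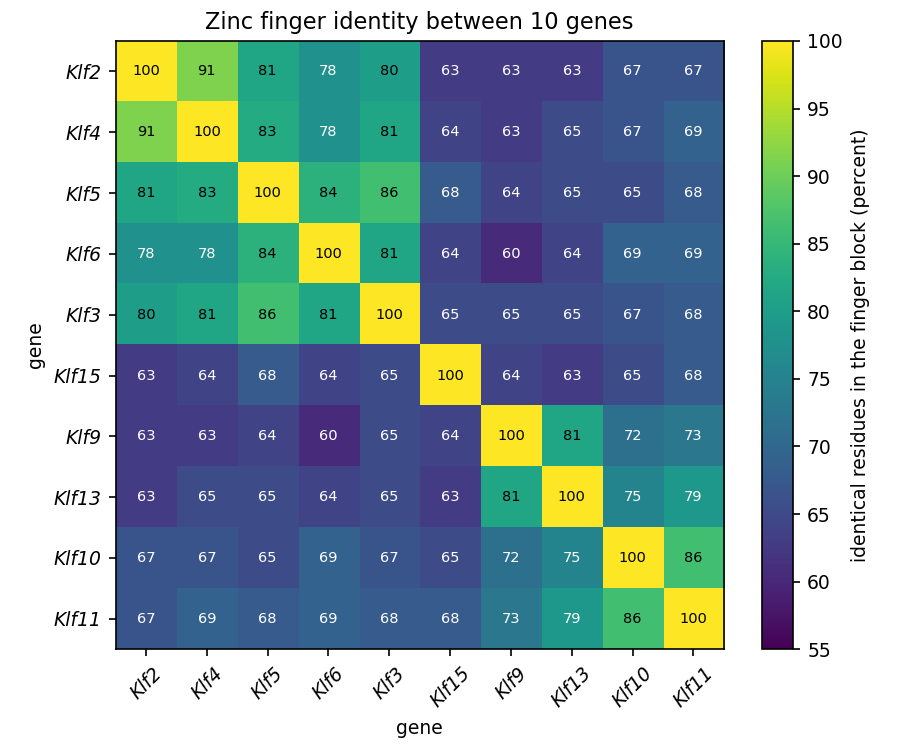
Percent of identical residues in the 81-residue zinc finger block for each pair of the 10 genes, with gene names on both axes and the value printed in each cell. Klf2, Klf4, Klf5, Klf6 and Klf3 form a bright block at the upper left, Klf9, Klf13, Klf10 and Klf11 another at the lower right, and Klf15 has 63.0% to 67.9% with every other gene.

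Klf3 had the highest level of the 10, at 42.6 ± 0.0482% of their summed TPM (SD, n = 2). TPM is the deposited level per unit of transcript length, scaled to a fixed total in each library. The 10 genes summed to 121.82 TPM in replicate 1 and 129.79 in replicate 2. Klf1 alone had 479.15 and 447.89 TPM, which was 3.93 and 3.45 times that sum. Klf3, Klf10 and Klf13 together made up 70.0% of the sum in replicate 1 and 71.8% in replicate 2. Of the 10 genes, 8 were detected, meaning a TPM of at least 1 in both libraries, against 29.6% of all mouse gene identifiers and 54.5% of protein-coding genes. Klf5 and Klf4 did not reach it. The median level of the 10 was 8.22 TPM, against 12.7 TPM over the 12841 detected genes, and 3 of them lay above that value. In bulk tissue, fewer cells of a type and less RNA per cell cannot be told apart, so these levels are averages over all cells of the liver.

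**Figure D2:**
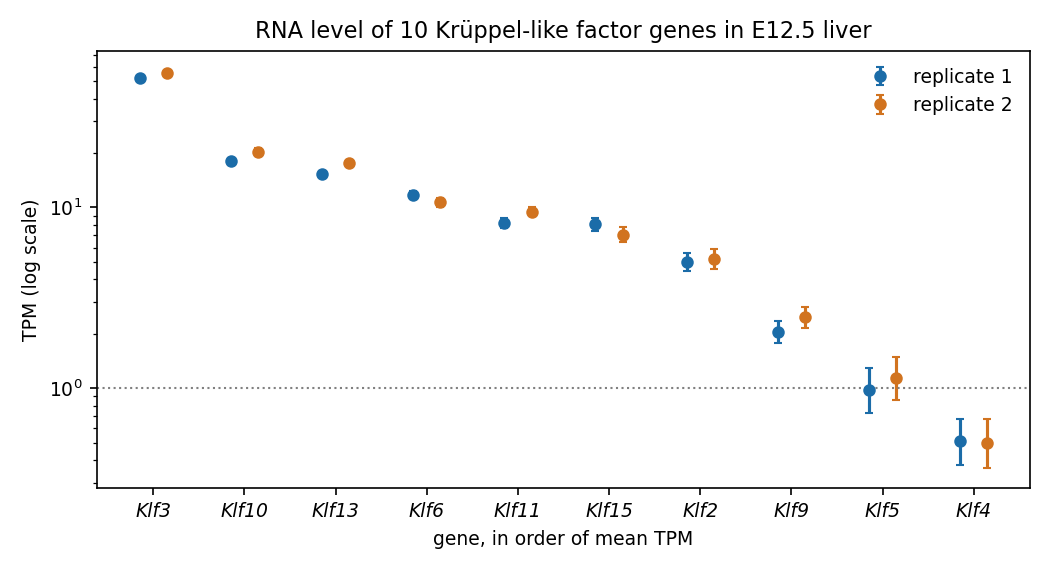
Level of each of the 10 genes in TPM on a log axis, with replicate 1 left of replicate 2 and genes in order of mean level. Bars are exact 95% counting intervals and the dotted line is 1 TPM. The order is the same in both libraries, with Klf3 at 51.84 and 55.32 TPM at the top and Klf4 at 0.51 and 0.50 TPM at the bottom.

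Klf3 (ENSMUSG00000029178.10, chr5:64803388-64832901, plus strand) represses genes through CtBP and in mouse red cell precursors is switched on by Klf1. It had 51.84 TPM in replicate 1 and 55.32 in replicate 2, or 53.6 ± 2.46 TPM, from 3523 and 3501 reads. It was higher than 82.3% of detected genes. In the same libraries its activator Klf1 was 9.24 and 8.10 times as high. Klf3 was 2.88 and 2.73 times as high as Klf10, the next of the 10, and 102 and 111 times as high as Klf4. The noncoding gene Gm20033 overlaps exons of Klf3 on the opposite strand and had 1.28 and 1.86 TPM from 19 and 26 reads. The labels do not give the strandedness, so reads of this pair cannot be told apart where they overlap.

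Of the 4 Sin3A-binding members, Klf10 and Klf13 were the most abundant and Klf9 was the least. They summed to 43.68 TPM in replicate 1 and 49.88 in replicate 2, or 35.9% and 38.4% of the total of the 10. Klf10 (ENSMUSG00000037465.9, chr15:38291463-38300706, minus strand), an early response gene of TGF-beta signalling, had 18.00 and 20.28 TPM from 1669 and 1741 reads, or 19.1 ± 1.61 TPM. Klf13 (ENSMUSG00000052040.9, chr7:63886351-63938915, minus strand), which takes part in late red cell maturation in mouse and controls Ccl5 in T cells, had 15.41 and 17.64 TPM from 2991 and 2840 reads, or 16.5 ± 1.58 TPM. Both lay above the median of detected genes in both libraries, and their ranges did not overlap. Klf11 (ENSMUSG00000020653.7, chr12:24651274-24662789, plus strand), the closest relative of Klf10, had 8.23 and 9.49 TPM from 1004 and 1071 reads, or 8.86 ± 0.891 TPM. Klf9 (ENSMUSG00000033863.1, chr19:23141226-23168134, plus strand), a target of thyroid hormone and glucocorticoid receptors, had 2.04 and 2.47 TPM from 203 and 228 reads, or 2.26 ± 0.304 TPM. All 4 had their higher value in replicate 2, as did 7 of all 10 genes. The same share over all genes was not computed, and their median ratio was 1.004. For Klf9 the counting interval of the ratio took in equality, and the gap of Klf13 went with a short model of few reads.

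Of the 4 activator-type members, Klf6 and Klf2 were detected, and Klf5 and Klf4 were at or under 1.14 TPM. The set summed to 18.21 TPM in replicate 1 and 17.51 in replicate 2, or 14.9% and 13.5% of the total of the 10. Klf6 (ENSMUSG00000000078.6, chr13:5861482-5870394, plus strand), needed for yolk sac blood formation in mouse, had 11.72 and 10.67 TPM from 1519 and 1280 reads, or 11.2 ± 0.742 TPM. Klf2 (ENSMUSG00000055148.7, chr8:72319033-72321656, plus strand), a flow-responsive endothelial factor that also acts on embryonic globin genes in the mouse yolk sac, had 5.00 and 5.20 TPM from 275 and 265 reads, or 5.10 ± 0.141 TPM. Klf6 was the highest of this set in both libraries. Klf5 (ENSMUSG00000005148.7, chr14:99298691-99315036, plus strand), a factor of proliferating gut and other epithelia, had 0.98 and 1.14 TPM from 50 and 54 reads, or 1.06 ± 0.113 TPM, so that it passed 1 TPM in replicate 2 and missed it in replicate 1. Klf4 (ENSMUSG00000003032.8, chr4:55527143-55532466, minus strand), a pluripotency, monocyte and skin barrier factor, had 0.51 and 0.50 TPM from 47 and 43 reads, or 0.505 ± 0.00707 TPM. Its 3-read floor was 0.0326 TPM in replicate 1 and 0.0349 in replicate 2, so its reads were well above that limit.

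Klf15 (ENSMUSG00000030087.7, chr6:90462576-90475238, plus strand), which in adult mouse liver controls amino acid breakdown and glucose production, had 8.09 TPM in replicate 1 and 7.08 in replicate 2. Its mean was 7.59 ± 0.714 TPM, from 579 and 469 reads, and it was higher than 37.1% of detected genes. It had a level near that of Klf11 in replicate 1 and below it in replicate 2.

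The 10 genes had the same rank in both libraries. Each of the 9 neighbouring pairs in this order had ranges over the 2 libraries that did not overlap, which with 2 values a gene is a description and no test. Within a library, exact 95% counting intervals of neighbours were apart in 8 of 9 pairs in replicate 1 and in 9 of 9 in replicate 2. The exception was Klf11 with Klf15 in replicate 1, where 8.23 TPM had an interval of 7.73 to 8.76 TPM and 8.09 TPM one of 7.44 to 8.78 TPM. These 2 genes therefore do not differ beyond counting error in that library. By the ratio of means, Klf10 over Klf13 at 1.16 and Klf11 over Klf15 at 1.17 were the smallest steps, and Klf3 over Klf10 at 2.80 was the largest.

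Set in the wider family, Klf3 was second to Klf1 among the Krüppel-like factors listed. Of the 7 others, 4 were detected and their median was 3.33 TPM. After Klf1 the highest were Klf16 with 21.48 and 20.79 TPM, above Klf10 in both libraries, and Klf7 with 6.79 and 5.65 TPM. Klf17 had 2 reads in each library. The related Sp factors bind the same GC-rich DNA, and 4 of 9 were detected, with a median of 0.47 TPM. Sp3 had 39.30 and 41.33 TPM, below Klf3 and above Klf10, and Sp2 with 13.64 and 16.20 TPM and Sp4 with 5.16 and 5.60 TPM followed. Sp9 had 0 and 2 reads.

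**Figure D3:**
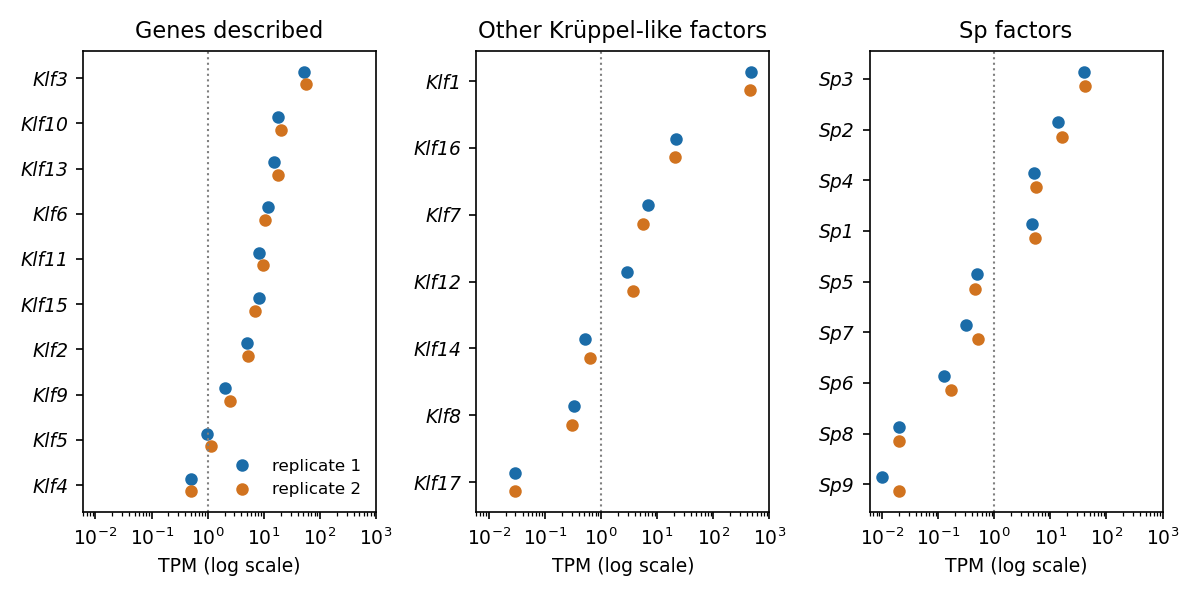
TPM on a log axis for the 10 genes, the 7 other Krüppel-like factors and the 9 Sp factors, with replicate 1 above replicate 2 in each row and a dotted line at 1 TPM; Sp9, listed at 0 in replicate 1, is drawn at 0.01. Klf1 lies apart at 479.15 and 447.89 TPM, and Klf3 and Sp3 lead their panels at 51.84 and 55.32 TPM and at 39.30 and 41.33 TPM.

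The listed partners of these factors were all detected. Of the 12 corepressors and coactivators listed, all passed 1 TPM in both libraries, with a median of 30.7 TPM, and the highest were Ctbp1, Hdac1 and Hdac2. Of the CtBP genes, Ctbp1 had 195.77 and 203.04 TPM and Ctbp2 had 20.93 and 19.92 TPM. The histone deacetylases Hdac1 and Hdac2 had 126.61 and 121.19 TPM and 90.09 and 96.43 TPM. Sin3a, a partner of the Klf9, Klf10, Klf11 and Klf13 set, had 17.82 and 17.65 TPM, near the level of Klf10. The related Sin3b had 67.66 and 62.65 TPM. All 4 ubiquitin ligases listed for turning over these proteins were detected, with a median of 6.15 TPM, led by Itch at 22.67 and 21.97 TPM, Wwp1 at 7.95 and 8.09 TPM and Fbxw7 at 4.30 and 4.27 TPM. All 13 genes of the upstream signals (TGF-beta and Smad, MEK5 and ERK5 with Mef2, and hormone receptors) were detected, with a median of 11.2 TPM. The highest were the glucocorticoid receptor Nr3c1 at 19.42 and 19.49 TPM, Smad2 at 19.09 and 18.63 TPM and the kinase Map2k5 at 13.61 and 12.91 TPM.

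Of 11 genes known from other work as targets of these factors, 10 were detected, with a median of 8.62 TPM. Ccnd1, a cyclin, had 39.68 and 40.56 TPM, the endothelial receptor Eng had 30.82 and 28.13 TPM, and Lgals3, a Klf3-repressed gene in mouse red cells, had 14.65 and 14.95 TPM. Ccl5, the T cell target of Klf13, was the exception at 0.29 and 0.08 TPM, from 4 reads and 1 read. The lymphoid markers were also near 0, with Cd3e at no read in either library. Whether this bears on the level of Ccl5 was not tested. A single tissue at a single stage gives no relation between a factor and its targets, and none was computed.

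Markers of the cell types in which these factors are known were measured beside them. All 6 red cell markers and all 5 hepatoblast markers were detected, with medians of 582 and 468 TPM. The endothelial list, the cells of Klf2, had 4 of 4 detected with a median of 12.7 TPM, and the macrophage list, cells in which Klf4 is known, had 4 of 4 with a median of 31.7 TPM. The stellate and mesenchymal list had 4 of 4 detected with a median of 29.1 TPM, the megakaryocyte list 3 of 3 with 74.8 TPM, and the granulocyte list 3 of 3 with 186 TPM. Fewer markers were detected in the lymphoid, skin and gut lists. The lymphoid list had 0 of 3 detected with a median of 0.02 TPM. Of the 3 skin markers none was detected, with a median of 0.205 TPM and summed levels of 1.21 TPM in replicate 1 and 1.84 in replicate 2. Of the 3 gut markers, with a median of 0.755 TPM, Krt20 alone was detected, at 21.45 and 20.41 TPM. The gut factor Cdx2 had 2 reads and 0. Which cells held the RNA of each factor was not tested.

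Between the pools, none of the 10 genes differed by 2-fold. Klf3, Klf6, Klf9, Klf10, Klf11 and Klf15 had TPM ratios whose counting interval left out the median of all genes. Klf13 did so too on gene TPM, but not on its reads with TMM or DESeq2 factors, nor on its long transcript model alone. Ratios are replicate 1 over replicate 2, and 9 of the 10 had the mean of at least 50 reads required; Klf4, with 47 and 43, did not. None of the 9 reached 2-fold, against 0.361% of the 13017 genes with that many reads, and none reached a ratio of 5 to 4, against 8.68% of those genes. The exact 95% counting interval of the TPM ratio left out the median ratio of all genes, 1.004, in 7 of 9 members, against 30.5% of all genes and 27.8% of genes within the same range of mean counts. The chi-square statistic between the libraries averaged 4.30 per gene at 1 degree of freedom, a mean that genes with many reads can dominate. In the members' range of counts, 27.8% of the 95% intervals left out the median. The pools therefore differed beyond counting noise there, and these intervals are too narrow for the spread between pools. The median log2 ratio of the 10 was -0.13, against 0.0063 over the 13017 genes, and the median size of the log2 ratio was 0.18, against 0.085. The 10 include Klf4, below the read minimum, and Klf13 on gene TPM. The values over the 13017 genes were not matched for read counts.

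Of the 7, Klf6 and Klf15 were higher in replicate 1. Klf6 had a TPM ratio of 1.10 (95% counting interval 1.02 to 1.18), and Klf15 one of 1.14 (1.01 to 1.29). The other 5, Klf3, Klf10, Klf11, Klf13 and Klf9, were lower in replicate 1. Klf3 had a ratio of 0.937 (0.894 to 0.982), Klf10 one of 0.888 (0.829 to 0.950), and Klf11 one of 0.867 (0.795 to 0.946). Klf13 had a TPM ratio of 0.874 (0.830 to 0.920), against a read ratio of 0.972 (0.923 to 1.02) with TMM factors and 0.976 (0.926 to 1.03) with DESeq2 factors, whose intervals hold the median. Klf9 was the borderline case, at 0.826 (0.680 to 1.002), an interval that takes in equality and leaves out the median by a small margin. Klf2 at 0.962 (0.809 to 1.14), Klf5 at 0.860 (0.573 to 1.29) and Klf4 at 1.02 (0.660 to 1.58) had intervals that hold the median. With the libraries centred on the spike-ins in place of the TPM total, the ratio of every gene is multiplied by the same constant, 0.12 on the log2 scale before the pseudocount, and the median of all genes moves with it to 0.12. Klf3 then had a log2 ratio of 0.022, against -0.09 on the TPM scale, and Klf2 one of 0.058, against -0.055. Both changed sign by that constant alone and lay below the median of all genes on either scale.

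**Figure D4:**
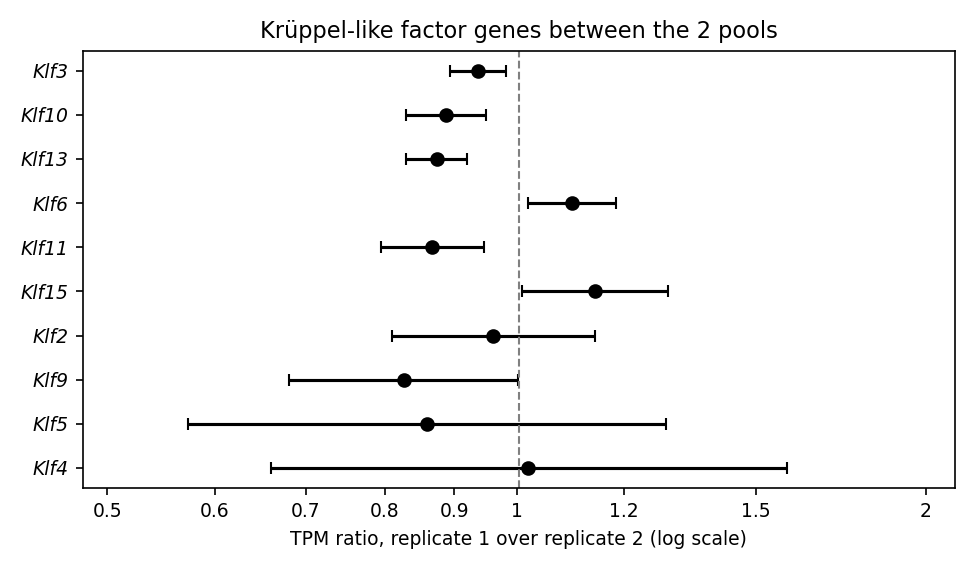
TPM ratio of each gene, replicate 1 over replicate 2, on a log axis with exact 95% counting intervals; the dashed line is the median ratio of all genes, 1.004. Klf6 and Klf15 lie right of the line, Klf3, Klf10, Klf13, Klf11 and Klf9 lie left of it, and Klf2, Klf5 and Klf4 cross it.

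The transcript tables listed 20 models for the 10 genes, of which 5 had no reads in either library. In 7 genes a single model took all reads: 5 genes have 1 model, and in Klf4 and Klf11 the other models had none. Klf3, Klf13 and Klf15 divided their reads.

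The reads of Klf3 were assigned almost wholly to the model with the upstream start. The model ENSMUST00000165536, which begins at the gene's first base, had 47.99 TPM in replicate 1 and 52.17 in replicate 2, or 93.4 ± 1.23% of the gene. The model ENSMUST00000166409 begins 8951 bases downstream and also ends earlier. It had 3.85 TPM from 177.39 estimated reads and 3.15 TPM from 134.27, or 7.43% and 5.69% of the gene. The deposited bounds of the 2 models, 45.2 to 48.8 and 2.57 to 5.37 TPM in replicate 1, and 49.2 to 53.0 and 2.02 to 4.61 TPM in replicate 2, lay far apart.

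Klf15 divided between a pair of starts, in shares that moved between the pools. The model ENSMUST00000032174, from the upstream start, had 5.48 TPM in replicate 1 and 6.37 in replicate 2, which is 67.7% and 90.0% of the gene. The model ENSMUST00000113530 begins 2728 bases downstream, with a first exon of 154 bases in place of 150, and had 2.61 and 0.71 TPM, which is 32.3% and 10.0%. The deposited bounds of the downstream model, 1.42 to 4.23 TPM in replicate 1 and 0.242 to 1.65 TPM in replicate 2, overlapped. In the annotation these models have the same coding exons and differ in the first exon and in the last 3 bases. Few reads can therefore tell them apart, and the sources used here do not give the confidence level of the deposited bounds. The upstream model was the higher one in both libraries.

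For Klf13, the difference in gene TPM between the pools went with a short model that rests on few reads. The long model ENSMUST00000063694 had 15.04 TPM in replicate 1 and 15.31 in replicate 2, from 2983.12 and 2810.94 estimated reads. The model ENSMUST00000185175, of 487 bases, had 0 and 2.13 TPM, from 0 and 24.06 reads. Those reads were 0.847% of the gene's reads in replicate 2 and 12.1% of its TPM, since TPM divides by length, and the deposited bounds of 2.0e-06 to 1.74 and 0.220 to 4.24 TPM overlapped. On the long model alone the ratio was 0.982 (0.933 to 1.03), an interval that holds the median, so that 6 in place of 7 of the 9 members were outside it. A retained-intron model held 5 reads in each library.

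**Figure D5:**
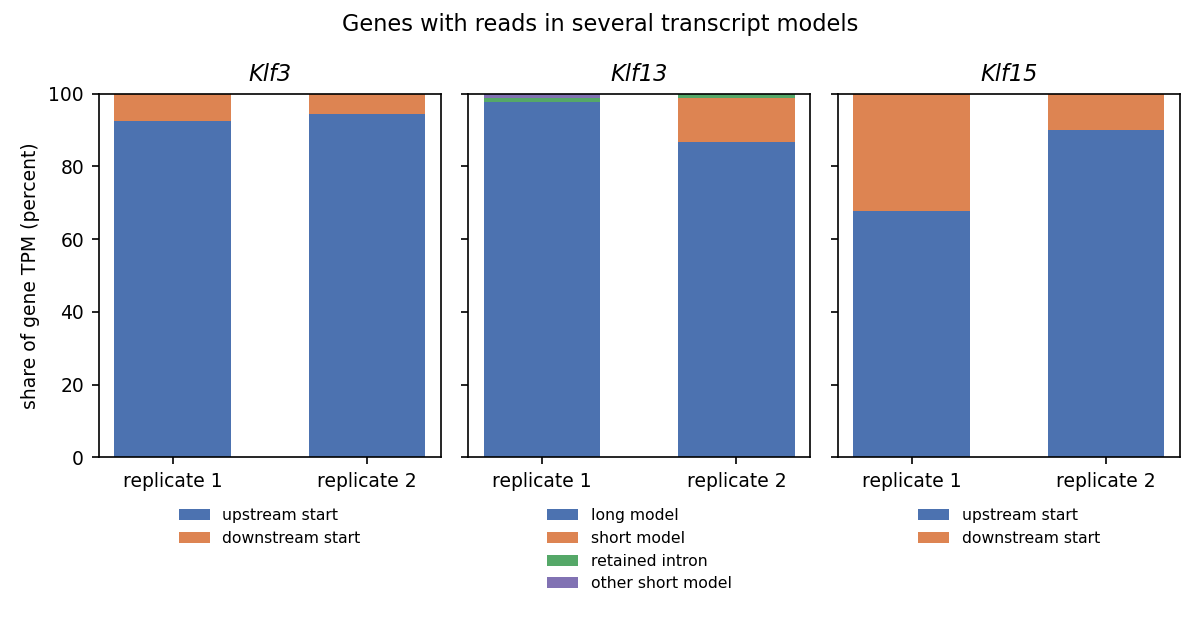
Percent of the gene's TPM in each transcript model of Klf3, Klf13 and Klf15, as stacked bars with replicate 1 left of replicate 2. The upstream model of Klf3 holds 92.6% and 94.3%, the short model of Klf13 appears in replicate 2 alone at 12.1%, and the downstream start of Klf15 holds 32.3% and 10.0%.

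The deposited set held 20 models of the 10 genes, against 39 in GENCODE M21, so the transcript shares rest on the older set. The largest changes in the length of a main model were in 3 of the genes. The main model of Klf11 changed less, from 3974 to 4086 bases. The deposited models of Klf3, Klf5 and Klf9 are 2314, 1721 and 3263 bases long, whereas the main models of the same transcripts in the later GENCODE M21 set are 5221, 3352 and 4486 bases long. Reads in the added stretches were not part of the deposited counts, and what levels they would give was not tested.

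Promoter windows, from 250 bases before to 50 after the RefSeq start, were found for 8 of the 10 genes in build GRCm38.p6. The 8 were Klf2, Klf3, Klf4, Klf6, Klf9, Klf11, Klf13 and Klf15. They were rich in G and C, at 63.0% to 77.7% with a median of 72.7%, against a median of 52.7% over all 32851 windows, and held 23 to 47 CpG pairs, against a median of 7. Exact matches were counted on both strands. CACCC, the core that Krüppel-like factors bind, was in 5 of 8 windows, against 57.5% of all. The looser CCNCNCCC, which can overlap CACCC and the next motif, was in 7 of 8, against 49.5%, and GGGCGG, the Sp-type box, was in 7 of 8, against 35.7%. CCAAT was in 5 of 8, against 37.4%. TATAAA was in 0 of 8, against 13.6% of all windows. The blood-type motif AGATAA, as bound by Gata1, was in 0 of 8, against 11.2%. The shares over all windows were not matched for G and C content. These differences therefore cannot be told apart from base composition. These are letters in a window and no sites of binding.

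The windows of Klf3 and Klf15 are printed because the upstream models that took most of the reads of these genes begin in them. The Klf15 model begins at the RefSeq start, at base 90462576. The Klf3 model begins before the RefSeq start, at base 64803388, with a first exon of 404 bases. The rest of the Klf3 window, to base 64803570, therefore lies in that exon, and so do some of its marked matches. The capitals mark CACCC and GGGCGG on either strand, so that CACCC also appears as GGGTG. Klf3 had the most matches of the 8, with 5 of CACCC, 10 of CCNCNCCC and 6 of GGGCGG, and Klf15 had 1, 3 and 1.
Klf3 promoter at chr5:64803271-64803570, plus strand: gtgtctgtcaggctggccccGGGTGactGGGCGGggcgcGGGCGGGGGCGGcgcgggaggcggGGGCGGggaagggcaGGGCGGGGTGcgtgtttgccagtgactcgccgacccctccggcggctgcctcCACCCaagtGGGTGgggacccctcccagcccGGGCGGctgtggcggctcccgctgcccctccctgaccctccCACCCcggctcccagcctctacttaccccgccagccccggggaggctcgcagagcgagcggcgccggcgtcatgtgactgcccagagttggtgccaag
Klf15 promoter at chr6:90462326-90462625, plus strand: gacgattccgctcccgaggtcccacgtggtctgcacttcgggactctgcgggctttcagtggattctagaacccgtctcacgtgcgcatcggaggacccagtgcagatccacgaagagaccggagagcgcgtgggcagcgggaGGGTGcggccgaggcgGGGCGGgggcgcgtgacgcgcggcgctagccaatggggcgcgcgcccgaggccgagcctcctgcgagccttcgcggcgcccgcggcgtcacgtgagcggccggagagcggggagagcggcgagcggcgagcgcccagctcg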

How the data were processed

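Total RNA of 2 liver pools was sequenced from 10 ng each. Per the labels, spike-ins were added (2.94% and 3.19% of counts); per the deposited header texts, quantification used mm10 with GENCODE M4. The sources used here do not give the aligner or quantifier. The authors deposited expected counts (estimated reads per gene or transcript, not normalized), TPM, FPKM (used as an alternative scale) and, per transcript, the percent of gene TPM and bounds of TPM. From these, log2 ratios were computed of TPM + 0.1, replicate 1 over replicate 2, which understates ratios of low genes. Exact 95% Clopper-Pearson intervals used expected counts rounded to whole numbers and cover counting error only, since reads amplified by PCR and counted without molecular identifiers need not be separate molecules. At an effective length of 1 kb, the floor of 3 reads was 0.0953 TPM in replicate 1 and 0.103 in replicate 2. Coordinates (1-based) and transcript types are from GENCODE M21 on the same assembly. TMM factors came from edgeR 4.0.16 and size factors from DESeq2 1.42.0 (R 4.3.3), as alternatives. The ratio step was tested on simulated libraries with counting noise alone. That test cannot show how the intervals behave with the spread between these pools. The labels name separate pools of embryos as biological replicates. All members are named, and of each list of relatives, partners, signals and targets the 3 highest genes and any with no reads; cell type marker lists are given by their counts and medians. Other genes named are partners, targets or neighbours of members or cell type markers, chosen after their values were seen. The members, lists and rules were chosen with earlier results of these data known. Finger identity was computed from translated GENCODE coding sequence rather than RefSeq proteins.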

Additional observations from a re-analysis of the deposited data

How the results depend on the processing

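Of 150 alternative values, 133 were labelled the same, 16 moved and 1 reversed. A count was the same within 1.5-fold of its main value, and other values when they moved by no more than their spread. Only members whose interval left out the median could be labelled reversed, so Klf2, which changed sign on the spike-ins, was not. Leaving out 1 of 2 libraries moves a mean by no more than the SD. Those levels, sums and shares were therefore the same by construction. So were the shares of genes with all reads in a single model. The reversed value was the log2 ratio of Klf3, which was 0.022 with the libraries centred on the spike-ins and -0.09 on the TPM scale; that centring adds the same constant to every gene, the median of all genes included, and left 5 of the 10 genes higher in replicate 1, against 3. The summed TPM of the members was 133 when scaled to mouse genes alone, and the share of Klf3 was 30.1% of expected counts, which ignore length, and 42.65% over protein-coding transcripts. The number of genes past 2-fold, 47 over all genes, was 17 with a pseudocount of 1, 265 at 1.5-fold, 1130 at a ratio of 5 to 4, 278 with a mean count of at least 10, 2 at the highest count minimum tried and 1795 with no minimum. With TMM or DESeq2 factors 6 of 9 members, all of the 7 but Klf13, had an interval outside the median, against 25.4% of all genes, and the log2 ratio of Klf13 was -0.04 with either. The long Klf13 model alone, an alternative chosen after seeing the data, gave -0.03. No paired comparison of conditions was possible because there is only 1 group. Depth limits Klf4 and Klf5 most, with 43 to 54 reads a library.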
